A study of Mus musculus with 8 samples.

Results

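The genes described here are 10 genes of the secondary (specific) granules and of late neutrophil maturation: Ltf, Camp, Ngp, Lcn2, Cd177, Chil3, Retnlg, Ly6g, Padi4 and Pglyrp1. They were taken as a list of gene symbols, with metalloproteinase genes left out, and were matched to the Ensembl identifiers of a table of 26930 genes. All 10 were in the table, and all 10 passed the filter on low counts, as did 12852 genes in all. Their RNA was measured by poly(A) RNA sequencing in 8 libraries of mouse myeloid-derived suppressor cells (MDSCs), a mixed population of immature neutrophil-like and monocyte-like cells that restrain T cells. Marrow of C57BL/6 mice had been cultured with 40 ng/ml each of IL-6 and GM-CSF, and the cells were moved on day 4 to medium conditioned by TRAMP-C1 cells, a mouse prostate tumour line. The labels describe them as senescent-like. In 4 libraries the cells had then received Romidepsin, an inhibitor of class I histone deacetylases, at 0.5 µM for 6 h, and in the other 4 they were left untreated. Both groups share the cytokines and the conditioned medium, and the labels name no vehicle, no sort of the cells and no age of the mice.

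Neutrophils fill their granules in a fixed order while they mature in the bone marrow. Myeloblasts and promyelocytes make the primary granule proteases and myeloperoxidase, myelocytes and metamyelocytes make the secondary granule proteins, and surface proteins such as Ly6g and Cd177 mark the late stages. The secondary granule genes are known to depend on the transcription factor C/EBPε, and the granule proteins bind iron, siderophores or bacterial walls, or kill bacteria.

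Total counts ranged from 12996892 to 23176949 per library, and no member had fewer than 18 counts in any library. Levels are CPM after TMM scaling, which sets library sizes by a trimmed mean of gene ratios, with means ± SD over n = 4 per group, and fold changes are log2 values of Romidepsin over untreated with their standard error (SE). A gene was said to rise or fall where the adjusted p of edgeR's quasi-likelihood test was under 0.05. The treated libraries were not alike over all genes. On the first principal component (68% of the variance), treated replicates 1 to 4 lay at 105, 104, −1.17 and 50.3, and untreated libraries at −77.3 to −50.6. For treated replicate 3 the mean r over genes was 0.934 to the untreated and 0.910 to the other treated libraries. Whether separate mice or cultures stand behind the libraries is not in the labels, and p-values therefore reflect only how these samples vary, possibly for technical reasons. RNA of genes for markers of MDSCs was detected, that of Ly6g at a low level. Untreated libraries held 902, 816, 762 and 407 CPM of Itgam (CD11b), 573, 1405, 1747 and 1181 CPM of Ly6c2 and 17, 19.6, 4.68 and 11 CPM of Ly6g. Per kilobase of exons, Ly6g was the lowest of the 10 genes in untreated cells. Of the 5024 exon bases of Itgam, 3450 overlap Gm49368 on the same strand, so its values are uncertain.

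Romidepsin-treated cells held less RNA of the secondary granule and late neutrophil genes. All 10 estimates were negative, and Lcn2, Padi4, Pglyrp1, Camp and Retnlg fell by the test. That is 5 of 10 genes, beside 16.2% of all 12852 tested genes, and 18.1% of the 9039 tested genes that averaged 10 CPM or more. This list and those below were chosen with earlier results of these data known, so such shares describe the lists and do not test them. None of the 10 rose, at an unadjusted p under 0.05 or in DESeq2 either, while 20.3% of all tested genes did. The median log2 fold change of the 10 genes was −1.92, against 0.00568 over all tested genes, a value that TMM scaling itself brings near 0. Libraries with the same replicate number deviated together from their group means, and with this number as a block 9 of the 10 genes fell, all but Ly6g, beside 20.8% of all genes. For 6 genes (Camp, Ngp, Lcn2, Chil3, Retnlg and Padi4) every treated library lay below every untreated one, as it did for 16.5% of tested genes. In these bulk samples, fewer neutrophil-like cells and less RNA per cell cannot be told apart.

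**Figure D1:**
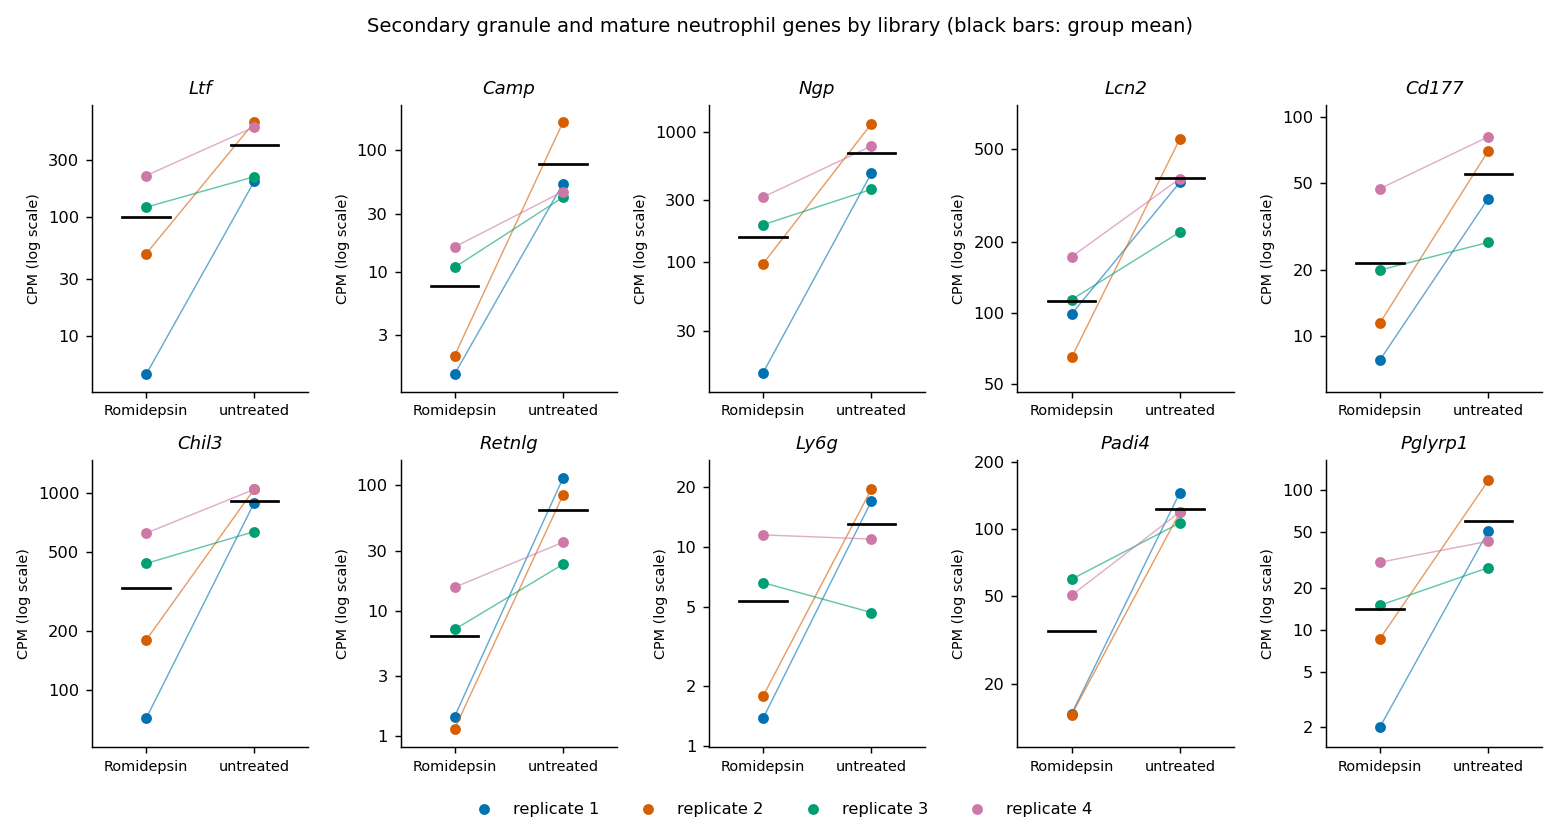
TMM-scaled CPM (log axis) of the 10 genes in each library, with Romidepsin on the left and untreated on the right of each panel, 1 colour per replicate number, a thin line joining libraries of the same number and a black bar at each group mean. The lines of numbers 1 and 2 are the steepest for each gene, and the Ly6g lines of numbers 3 and 4 run the other way (number 3: Romidepsin 6.62, untreated 4.68 CPM).

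Ltf, Camp, Ngp and Lcn2 encode proteins stored in the secondary granules. Camp, Ngp and Ltf lie in the same stretch of chromosome 9, within 1.20 Mb that holds 31 protein-coding genes in the GENCODE annotation. To show the sequence before the granule genes described first, the RefSeq promoter windows of these and of Lcn2 are shown, each with 250 bases before and 50 after the gene start on GRCm38.p6, 5′ to 3′ on the strand of the gene. The windows are Ltf (chr9:111019042-111019341, plus strand), Ngp (chr9:110419558-110419857, plus strand), Camp (chr9:109849407-109849706, minus strand) and Lcn2 (chr2:32387690-32387989, minus strand). Capitals mark matches, on either strand, to TTGCNNAA, a short form of the C/EBP binding motif, or to GAGGAAGT, a form of the PU.1 motif.
Ltf: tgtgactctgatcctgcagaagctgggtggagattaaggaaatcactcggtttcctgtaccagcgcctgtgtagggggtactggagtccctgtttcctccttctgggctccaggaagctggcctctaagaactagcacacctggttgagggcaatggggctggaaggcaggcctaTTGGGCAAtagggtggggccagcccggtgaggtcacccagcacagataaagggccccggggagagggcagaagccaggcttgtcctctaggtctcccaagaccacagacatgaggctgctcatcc
Ngp: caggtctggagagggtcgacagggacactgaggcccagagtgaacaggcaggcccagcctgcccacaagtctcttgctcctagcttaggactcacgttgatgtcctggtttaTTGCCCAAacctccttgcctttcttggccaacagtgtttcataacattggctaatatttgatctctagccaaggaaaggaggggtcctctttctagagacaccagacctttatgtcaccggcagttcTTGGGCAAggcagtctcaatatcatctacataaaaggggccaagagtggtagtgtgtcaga
Camp: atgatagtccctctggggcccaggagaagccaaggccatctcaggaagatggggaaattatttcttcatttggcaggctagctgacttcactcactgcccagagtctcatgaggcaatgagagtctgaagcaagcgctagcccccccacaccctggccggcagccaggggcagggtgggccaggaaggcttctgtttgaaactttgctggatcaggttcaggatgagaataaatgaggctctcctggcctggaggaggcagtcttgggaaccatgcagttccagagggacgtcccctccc
Lcn2: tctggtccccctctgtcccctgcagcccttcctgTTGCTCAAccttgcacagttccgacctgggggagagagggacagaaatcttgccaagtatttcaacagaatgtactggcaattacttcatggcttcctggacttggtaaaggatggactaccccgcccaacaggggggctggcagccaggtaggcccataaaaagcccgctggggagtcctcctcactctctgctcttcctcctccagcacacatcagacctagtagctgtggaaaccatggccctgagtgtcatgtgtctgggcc
The C/EBP letters stood 75 bases before the Ltf start, 138 and 11 bases before the Ngp start and 216 bases before the Lcn2 start, counted at the first base of the match, and were not in the Camp window. These are RefSeq starts and differ from the bounds of the GENCODE gene positions below. The whole Lcn2 window lies within the GENCODE bounds of Lcn2. Ly6g, in 1 of its 2 windows, and Retnlg held them too. Of 32851 RefSeq promoter windows of this length, 10.8% held TTGCNNAA. The GAGGAAGT letters were in both Ly6g windows and in 3.2% of all windows. Of 4 further motifs searched on both strands, AATCANNGC (GFI1) was in no window of the 10 genes and in 3.28% of all windows. The NF-kB motif (1.18% of all windows) was in that of Pglyrp1, and GGGCGG (Sp1, 35.7%) in those of Lcn2 and Pglyrp1. TATAAA, a core promoter motif (13.6%), was in those of Chil3, Padi4, Cd177 and Ly6g. Its first base lay 3 bases before the start in Chil3, 31 in Padi4, 40 in Cd177, and 99 or 167 in the 2 Ly6g windows. A match describes these letters and shows no binding.

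Ltf encodes lactoferrin, an iron-binding protein that starves bacteria (chromosome 9, 111019271 to 111042767, plus strand, GRCm38, as for all gene positions below). It held 4.76, 48.9, 120.3 and 221 CPM in Romidepsin replicates 1 to 4, against 199, 622, 217 and 565 CPM in untreated replicates 1 to 4. Treated replicate 1 was far below the other libraries, and treated replicate 4 lay above untreated replicates 1 and 3, so the groups overlapped. The means were 98.8 ± 94.5 CPM in treated and 401 ± 224 CPM in untreated cells, and the fold change did not pass (log2 fold change −2.02 ± 0.90, adjusted p = 0.103), whereas it passed with the replicate block (log2 fold change −2.73 ± 0.78, adjusted p = 0.0276). Camp encodes the precursor of the mouse cathelicidin, an antimicrobial peptide (chromosome 9, 109847379 to 109849617, minus strand). Camp held 1.43, 2.03, 10.9 and 16 CPM in Romidepsin replicates 1 to 4, against 52.9, 169.6, 40.9 and 45.7 CPM in untreated replicates 1 to 4. All treated libraries lay below all untreated ones, and untreated replicate 2 stood far above the rest of its group. Camp fell (log2 fold change −3.35 ± 0.82, adjusted p = 0.0145), by nearly the same estimate as Retnlg, and the other 8 genes had smaller estimates. Its log2 fold change was −2.62 without untreated replicate 2 and −4.02 without treated replicate 4.

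Ngp encodes neutrophilic granule protein, a relative of the cathelicidins and cystatins (chromosome 9, 110419747 to 110423012, plus strand). Its level was 14.3, 97.4, 194 and 315 CPM in Romidepsin replicates 1 to 4, against 479, 1147, 361 and 776 CPM in untreated replicates 1 to 4. Every treated library lay below every untreated one, and treated replicate 1 held the least. The fold change missed the threshold (log2 fold change −2.15 ± 0.77, adjusted p = 0.0534) and passed with the block (log2 fold change −2.65 ± 0.74, adjusted p = 0.0246), in DESeq2 (adjusted p = 0.00503), in limma-voom (0.0461) and without treated replicate 1 (0.0394) or 4 (0.0437). Lcn2 encodes lipocalin 2, which binds bacterial siderophores (chromosome 2, 32384633 to 32388252, minus strand). Lcn2 held 99, 64.7, 114 and 174 CPM in Romidepsin replicates 1 to 4, against 360.0, 551, 221 and 374 CPM in untreated replicates 1 to 4. The groups did not overlap, and the treated libraries stayed within 2.69 times of each other, the narrowest treated range of the 10 genes. Lcn2 fell (log2 fold change −1.74 ± 0.36, adjusted p = 0.00731), and the call held in all 19 alternative settings tried, the single gene of the 10 for which this was so.

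Chil3, Pglyrp1 and Retnlg encode further secreted proteins of neutrophils. Chil3 encodes Ym1, a chitinase-like lectin that macrophages can also make (chromosome 3, 106147554 to 106167564, minus strand). It held 71.6, 179, 439 and 626 CPM in Romidepsin replicates 1 to 4, against 896, 1051, 638 and 1045 CPM in untreated replicates 1 to 4. The groups did not overlap, although the highest treated library (626 CPM) was close to the lowest untreated one (638 CPM). The fold change missed the threshold (log2 fold change −1.46 ± 0.57, adjusted p = 0.07) and passed with the block (log2 fold change −1.85 ± 0.55, adjusted p = 0.0308), in DESeq2 (adjusted p = 0.0167), in limma-voom (0.0452) and without treated replicate 4 (0.041). Of the 75-base stretches of Chil3 transcripts, 13% also occur in Chil4 or Gm6522, so a part of its reads could be placed in either. Chil4 itself had at most 0.132 CPM in any library.

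Pglyrp1 encodes a peptidoglycan recognition protein that binds bacterial cell walls (chromosome 7, 18871331 to 18890459, plus strand). It held 2.01, 8.64, 15 and 30.5 CPM in Romidepsin replicates 1 to 4, against 51, 118, 27.9 and 43.1 CPM in untreated replicates 1 to 4. Treated replicate 4 lay above untreated replicate 3, so the groups overlapped. Of the 75-base stretches of Pglyrp1 transcripts, 1.31% also occur in other genes. Pglyrp1 fell (log2 fold change −2.10 ± 0.72, adjusted p = 0.0479), but by the narrowest margin. The call was lost with library size or housekeeping scaling (adjusted p = 0.0563 and 0.0614), with no count filter (0.178) or a stricter one (0.0502), and in 7 of the 8 fits that left out 1 library, the exception being treated replicate 4. Retnlg encodes resistin-like gamma, a small secreted protein of granulocytes (chromosome 16, 48872621 to 48874496, plus strand). Retnlg held 1.43, 1.14, 7.08 and 15.3 CPM in Romidepsin replicates 1 to 4, against 113, 82.8, 23.3 and 35 CPM in untreated replicates 1 to 4. All treated libraries lay below all untreated ones, and untreated replicates 3 and 4 held less than untreated replicates 1 and 2. Retnlg fell (log2 fold change −3.35 ± 0.86, adjusted p = 0.0167), with log2 fold changes of −4.31 to −2.91 when each library in turn was left out, the lowest without treated replicate 4. Camp and Retnlg lost their calls when no count filter was applied (adjusted p = 0.0748 and 0.0847).

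Padi4, Cd177 and Ly6g encode a nuclear enzyme and a pair of surface proteins. Padi4 encodes peptidylarginine deiminase 4, which converts histone arginines to citrulline during the release of neutrophil extracellular traps (chromosome 4, 140745865 to 140774236, minus strand). It held 14.7, 14.6, 59.4 and 50.3 CPM in Romidepsin replicates 1 to 4, against 145, 119, 106 and 119 CPM in untreated replicates 1 to 4. The untreated libraries lay close together and the highest treated library was well below them. Padi4 fell (log2 fold change −1.82 ± 0.46, adjusted p = 0.0163), and its adjusted p was 0.0528 with no count filter. Cd177 encodes a glycoprotein anchored to the neutrophil membrane that binds PECAM-1 (chromosome 7, 24743983 to 24760311, minus strand). Cd177 held 7.8, 11.5, 20 and 47 CPM in Romidepsin replicates 1 to 4, against 42.3, 69.9, 26.7 and 80.9 CPM in untreated replicates 1 to 4. Treated replicate 4 lay above untreated replicates 1 and 3. The fold change did not pass (log2 fold change −1.35 ± 0.56, adjusted p = 0.0849) but did with the block (log2 fold change −1.55 ± 0.41, adjusted p = 0.0194), in DESeq2 (adjusted p = 0.0311), in limma-voom (0.0428) and without treated replicate 4 (0.0202, with an estimate of −2.07). Of its 75-base stretches, 3.58% occur in BC049730 or Gm4763.

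Ly6g encodes the surface antigen used to mark mouse granulocytes (chromosome 15, 75155240 to 75159126, plus strand). It held 1.38, 1.78, 6.62 and 11.5 CPM in Romidepsin replicates 1 to 4, against 17, 19.6, 4.68 and 11 CPM in untreated replicates 1 to 4. Treated replicates 3 and 4 held more than the untreated libraries of the same number, and treated replicates 1 and 2 less. The fold change did not pass in the unpaired fit (log2 fold change −1.30 ± 0.69, adjusted p = 0.163) or with the block (log2 fold change −1.55 ± 0.82, adjusted p = 0.166), nor under any other setting tried, where the adjusted p ranged from 0.064 to 0.321.

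**Figure D2:**
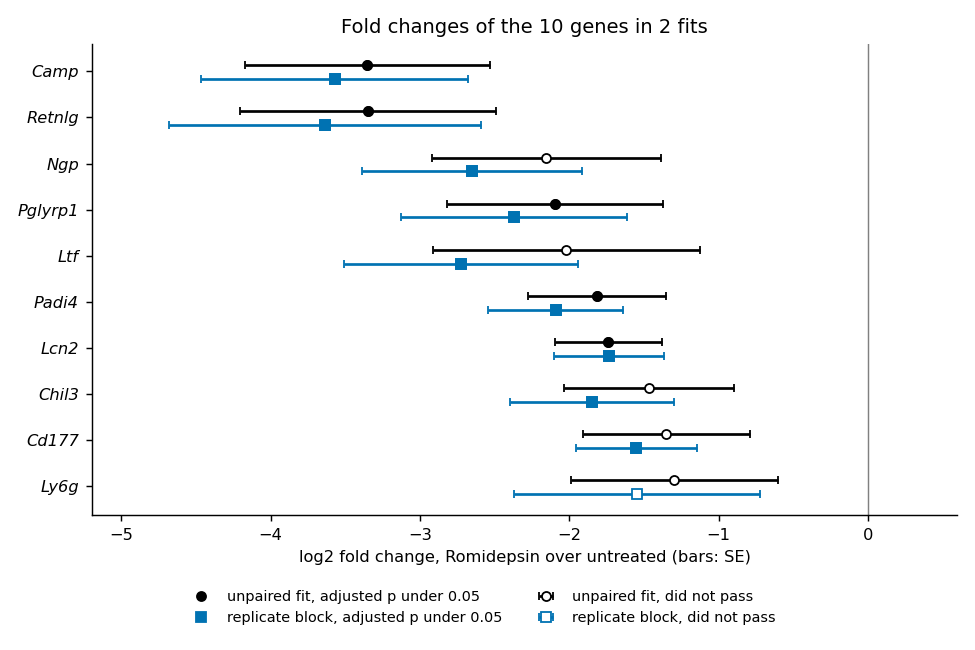
Log2 fold change, Romidepsin over untreated, of each gene in the unpaired fit (black circles) and in the fit with a replicate block (blue squares), with bars of 1 SE and filled symbols where the adjusted p was under 0.05. All 20 points lie below 0, with 5 filled circles and 9 filled squares.

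The counts moved with the fit more than the directions did. Members that fell numbered 8 in DESeq2 (beside 21.8% of all genes), 8 in limma-voom (18.7%) and 1, Lcn2, with no count filter (6.27%). Without treated replicate 1, 2, 3 or 4, 5 (9.46% of all genes), 4 (10.1%), 4 (23.4%) and 8 (9.2%) fell. Leaving out untreated replicate 1, 2, 3 or 4 gave 4 each time, beside 13.4%, 10.9%, 9.6% and 13.6% of all genes. With both libraries of number 3 left out, 4 fell without the block (18.9%) and 9 with it (20.3%). Library size and housekeeping scaling shifted the median of all genes to 0.31 and 0.71. The median of the 10 genes was then −1.69 and −1.42, all 10 estimates stayed negative, and 4 genes fell under each scaling, beside 10.6% and 5.6% of all genes. As a raw share of all counts, the 10 genes took 0.026% (95% Wilson interval 0.0252 to 0.0268%) to 0.162% (95% Wilson interval 0.16 to 0.164%) in treated libraries and 0.139% (95% Wilson interval 0.138 to 0.141%) to 0.362% (95% Wilson interval 0.359 to 0.365%) in untreated ones. By this unscaled share treated replicate 4 lay above untreated replicate 3, whereas in TMM-scaled CPM it lay below (1507 and 1667 summed CPM). Intervals cover counting error only.

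The size of the difference depended on the pair of libraries. Between libraries numbered 1, the log2 ratio of treated over untreated ranged from −5.87 to −1.86 over the 10 genes (median −4.00), and between those numbered 2 from −6.07 to −2.55 (median −3.35). For number 3 it ranged from −1.87 to 0.46 (median −0.86), and for number 4 from −1.49 to 0.07 (median −1.13). All 10 genes were thus lower in numbers 1 and 2, and all but Ly6g in numbers 3 and 4. Being lower in every pair held for 9 of the 10 genes, beside 29.5% of all tested genes. Treated replicate 4 was the highest treated library for 9 genes and treated replicate 3 for Padi4, although treated replicate 3 lay nearer to the untreated libraries over all genes. Untreated replicate 3 was the lowest untreated library for 9 genes, the exception being Ltf. The spread between treated libraries was widest for Ltf, whose highest treated library held 46.5 times the lowest, against 3.13 times among untreated libraries.

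**Figure D3:**
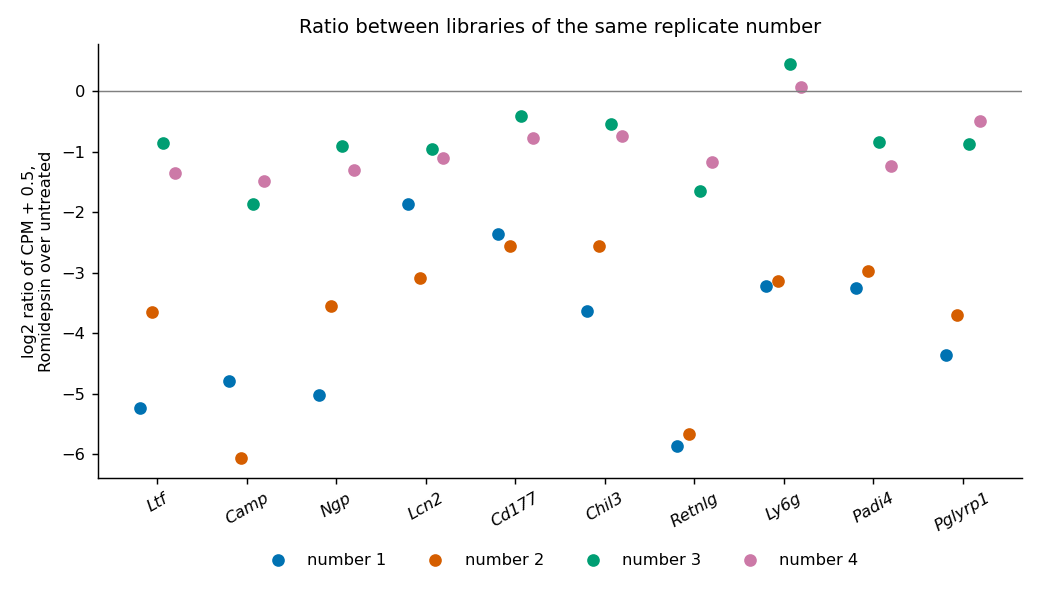
Log2 ratio of CPM + 0.5, Romidepsin over untreated, between libraries of the same replicate number, for each of the 10 genes, with 1 colour per number. Points of numbers 1 and 2 lie at −1.86 or below and those of numbers 3 and 4 at −1.87 or above, with the Ly6g points of numbers 3 and 4 above 0.

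Per kilobase of merged exons, Ngp (565 ± 287 CPM per kb) and Chil3 (556 ± 119) were the highest of the 10 in untreated cells, and their ranges overlapped. Chil3 lay apart from the next gene, Lcn2 (143 ± 51.5), which was followed by Ltf (116 ± 65), Retnlg (107 ± 70.5), Camp (102 ± 81.4), Pglyrp1 (32.6 ± 21.6), Padi4 (25.3 ± 3.41), Cd177 (19.3 ± 8.75) and Ly6g (13.9 ± 7.06). From Lcn2 down, each neighbour in this order overlapped the next. Merged exons join all annotated transcripts of a gene (2623 bases for Lcn2) and can exceed the length of its main transcript. The order and the gap below Chil3 depend on these lengths. In treated cells the levels ran from 202 ± 154 CPM per kb for Chil3 and 127 ± 106 for Ngp down to 5.65 ± 5.06 for Ly6g, and each gene overlapped the next over the 4 libraries.

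The ratio of 2 of these genes within a library needs no scaling between libraries, and all 45 pairs were compared in this way by exact two-sided permutation tests over the 8 libraries. These tests treated the libraries as unpaired and did not use the replicate number. In 10 pairs the groups gave the smallest p that 4 against 4 libraries allow (exact p = 0.0286), and in each of them Camp or Retnlg was lower relative to the other gene in treated libraries. The log2 ratio of Camp to Lcn2 counts was −4.47 ± 1.30 in treated and −2.48 ± 0.58 in untreated libraries. For Camp to Cd177 it was −1.83 ± 0.76 in treated and 0.35 ± 0.88 in untreated libraries. The smallest Benjamini-Hochberg adjusted exact p over the 45 was 0.129, and at least 26 pairs at the smallest p would be needed for any to pass. These unpaired tests of 4 against 4 libraries therefore leave unanswered whether the 10 genes were reduced to different degrees.

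Most relatives of the 10 genes were below the count filter. Of 26 genes listed as paralogs and family members, 24 were in the table and 10 passed the count filter. Of these 10, 2 fell and none rose, beside 16.2% of all tested genes (4 lower and none higher at an unadjusted p under 0.05; DESeq2 called 4 lower and none higher). Lrg1, 1 of these 2, belongs to no family of the 10 genes. With the block 8 fell, 4 without treated replicate 3, and 1 without treated replicate 1, untreated replicate 2 or untreated replicate 3, with library size or housekeeping scaling, or with no count filter. Where 1 fell, it was Chil5 with no count filter and Lrg1 in the other settings. The list's median log2 fold change was −1.21. Lrg1, a leucine-rich glycoprotein of neutrophil granules, fell to 3.96, 2.6, 20.3 and 13.7 CPM in treated replicates 1 to 4, against 62.7, 79, 40 and 50 CPM in untreated ones (log2 fold change −2.52 ± 0.60, adjusted p = 0.0128), and the Ly6 family gene Ly6d also fell (log2 fold change −1.54 ± 0.51, adjusted p = 0.042). Its call was lost in 5 of the 8 fits without 1 library (treated replicate 1, 3 or 4, untreated replicate 2 or 3; adjusted p = 0.0612 to 0.125). It was also lost with library size only (0.0807), housekeeping scaling (0.236), no count filter (0.0545), limma-voom (0.0559) and both libraries numbered 3 left out (0.116). Lrg1 lost its call with no count filter (0.0599). Chil1, the chitinase-like relative of Chil3, did not pass (log2 fold change −2.30 ± 0.83, adjusted p = 0.0549) and passed with the block (adjusted p = 0.0271). Padi2, the other deiminase gene above the filter, held 43.1, 46.1, 23.9 and 18.7 CPM in treated and 30.5, 29.2, 28.7 and 28 CPM in untreated libraries and did not pass (log2 fold change 0.18 ± 0.28, adjusted p = 0.629). Ly6c2, the monocyte counterpart of Ly6g, did not pass (log2 fold change −1.14 ± 0.72, adjusted p = 0.233) but did with the block (adjusted p = 0.0346), as did Ly6a, Ly6e, Ly6i and the transferrin gene Trf. Of the 3320 exon bases of Trf, 2108 overlap Gm20425 on the same strand, so its values are uncertain. Ly6c1 was at 0.0799 to 7.23 CPM and did not pass.

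Of 18 transcription factor and regulator genes listed for granulocyte development, 17 were tested, 11 fell, 1 rose and 5 did not pass, beside 16.2% lower and 20.3% higher over all tested genes, with a median log2 fold change of −0.81. The number that fell was 6 without treated replicate 1, 7 without treated replicate 2 or 4, 8 with library size only and 4 with housekeeping scaling, where the median was −0.17 and 5.6% of all genes fell. Cebpe encodes C/EBPε, the factor needed for secondary granule genes. Cebpe held 1.03, 0.762, 2.85 and 1.55 CPM in Romidepsin replicates 1 to 4, against 11.8, 18.9, 6.49 and 17.1 CPM in untreated replicates 1 to 4. The groups did not overlap, and Cebpe fell (log2 fold change −3.13 ± 0.49, adjusted p = 0.00272). Gfi1, a repressor needed for neutrophil differentiation, held 0.746, 0.889, 2.65 and 0.906 CPM in Romidepsin replicates 1 to 4, against 6.24, 18.1, 6.00 and 9.62 CPM in untreated replicates 1 to 4 and fell (log2 fold change −2.94 ± 0.55, adjusted p = 0.0051). Treated replicate 3 lay above the other treated libraries. Spi1, which encodes the myeloid master regulator PU.1, held 28.2, 20.5, 225 and 90.8 CPM in Romidepsin replicates 1 to 4, against 484, 619.6, 619 and 434 CPM in untreated replicates 1 to 4 (log2 fold change −2.56 ± 0.69, adjusted p = 0.0204; −3.55 without treated replicate 3). Its call was lost without treated replicate 4 (adjusted p = 0.0546) and with no count filter (0.0892).

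Cebpa, which starts the granulocyte programme, held 37.3, 30.1, 76.6 and 72.3 CPM in Romidepsin replicates 1 to 4, against 153, 123, 89.8 and 109 CPM in untreated replicates 1 to 4 and fell (log2 fold change −1.13 ± 0.32, adjusted p = 0.0239). That call was lost with housekeeping scaling (adjusted p = 0.15) and without treated replicate 1 (0.0627), untreated replicate 1 (0.0556) or untreated replicate 2 (0.0539). Cebpb, the factor of emergency granulopoiesis, did not pass, with 227, 168, 567 and 453 CPM in treated and 421, 610.4, 515 and 364 CPM in untreated libraries, and its sign turned with housekeeping scaling. Rfx2, an RFX family factor, was the listed regulator that rose (log2 fold change 2.65 ± 0.62, adjusted p = 0.0121), and it held 9.81, 14.4, 1.99 and 5.11 CPM in treated and 1.44, 1.65, 0.493 and 1.35 CPM in untreated libraries. The exons of Gfi1, Cebpa and Cebpb overlap genes on the opposite strand, and the strand setting of the counts is not given in the sources used here, so their values are uncertain. The lower levels of Cebpe and of the granule genes were measured in the same libraries, and a link between them was not tested.

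**Figure D4:**
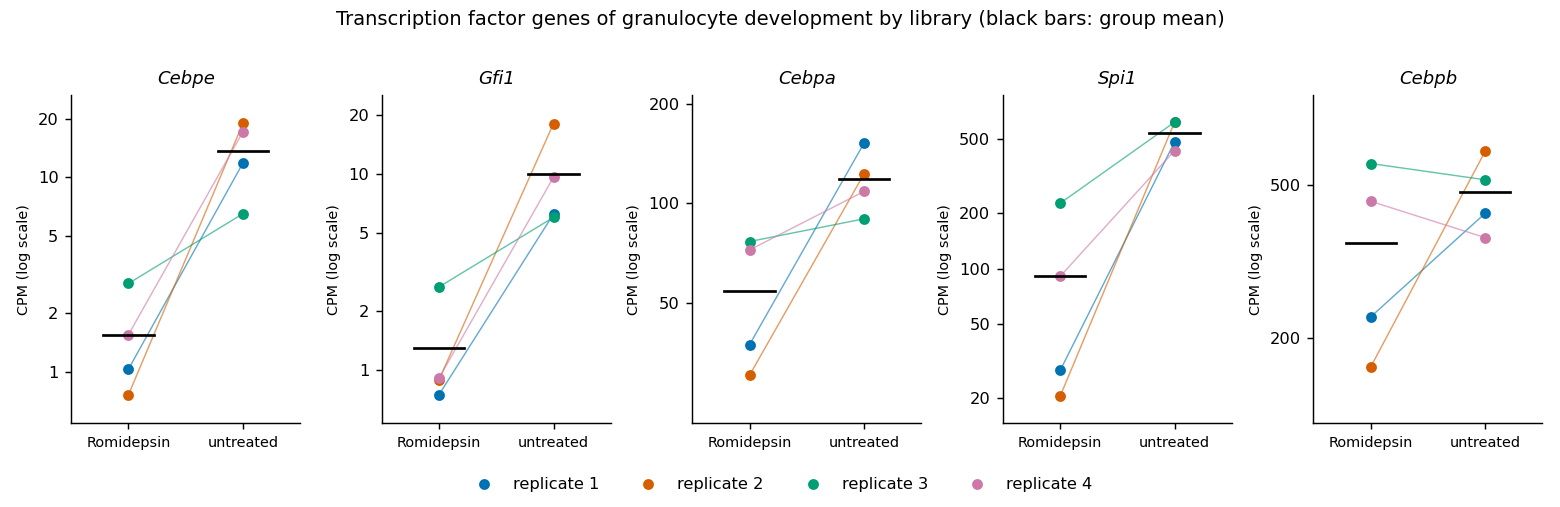
TMM-scaled CPM (log axis) of 5 transcription factor genes in each library, with Romidepsin on the left and untreated on the right, 1 colour per replicate number and a black bar at each group mean. Cebpe, Gfi1, Cebpa and Spi1 show no overlap between the groups, and Cebpb does.

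Of 20 further genes of specific and gelatinase granules, all tested, 2 fell, 18 did not pass and none rose, beside 16.2% lower over all tested genes (7 lower and none higher at an unadjusted p under 0.05; 9 lower and none higher in DESeq2), with a median log2 fold change of −0.87. With the block 12 fell, beside 20.8% of all genes. Leaving out 1 library gave 1 to 8, with 8 without treated replicate 3, 4 without treated replicate 4 and 1 without treated replicate 1 or 2 or untreated replicate 1 or 2. Library size only and no count filter each gave 1. The 2 were Mcemp1, a membrane protein gene of mast cells and neutrophils (log2 fold change −1.96 ± 0.50, adjusted p = 0.0161; 0.0606 with no count filter), and Cyba, the p22-phox subunit of the NADPH oxidase (log2 fold change −1.19 ± 0.39, adjusted p = 0.0409), whose call was lost without any 1 library but treated replicate 3 or untreated replicate 4 (adjusted p = 0.0645 to 0.0983), with library size only (0.0506) and with housekeeping scaling (0.0914). Lyz2, the lysozyme gene, held 15783, 12173, 26102 and 23337 CPM in treated and 32497, 27308, 36996 and 32389 CPM in untreated libraries (log2 fold change −0.74 ± 0.33, adjusted p = 0.105) and passed with the block (adjusted p = 0.0199). Of the 3 metalloproteinase genes of neutrophil granules, Mmp25 fell (log2 fold change −4.09 ± 0.56, adjusted p = 0.00197), and all 3 fell with the block and in DESeq2, and 2 without treated replicate 1. Mmp8, the neutrophil collagenase, did not pass in the unpaired fit (log2 fold change −1.27 ± 0.55, adjusted p = 0.0964) but did with the block (adjusted p = 0.0357).

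Primary granule genes gave 2 lower and none higher of 12 tested (3 lower and none higher at an unadjusted p under 0.05; DESeq2 called 3 lower and none higher), with a median log2 fold change of −0.99. This share lies near the 16.2% of all tested genes. Without treated replicate 3 the count was 4, and it was 1 without treated replicate 1, 2 or 4, without untreated replicate 3 or 4, or with housekeeping scaling. Mpo, the myeloperoxidase gene, held 4.07, 100.2, 223 and 256 CPM in Romidepsin replicates 1 to 4, against 294, 763, 263 and 458 CPM in untreated replicates 1 to 4, and the groups did not overlap but the fold change did not pass (log2 fold change −1.61 ± 0.89, adjusted p = 0.178). Its exons overlap Gm11505 on the opposite strand. Elane, the neutrophil elastase gene, held 2.58, 52.7, 133 and 134 CPM in Romidepsin replicates 1 to 4, against 203, 448, 129.8 and 162 CPM in untreated replicates 1 to 4 and did not pass (log2 fold change −1.55 ± 0.88, adjusted p = 0.189). Its level in treated replicates 3 and 4 was just above untreated replicate 3. As for Ltf and Ngp, treated replicate 1 held the least of both. The 2 called genes were Prss57, a serine protease gene with at most 12.2 CPM in a library and exons that overlap Fstl3 on the opposite strand (log2 fold change −3.35 ± 0.79, adjusted p = 0.0124), and Gusb, a lysosomal glucuronidase gene (log2 fold change −1.06 ± 0.33, adjusted p = 0.0326), whose call was lost without treated replicate 1, 2 or 4 or untreated replicate 3 or 4 (adjusted p = 0.0644 to 0.0833) or with housekeeping scaling (0.179). Ctsc, encoding the cathepsin that activates these proteases, did not pass (log2 fold change −0.27 ± 0.22, adjusted p = 0.351), with a sign that turned under library size and housekeeping scaling. Whether secondary granule genes were reduced more than primary granule genes was not tested.

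Late neutrophil genes outside the 10 gave 11 lower, none higher and 17 not passing of 28 tested, beside 16.2% lower and 20.3% higher over all tested genes, with a median log2 fold change of −1.64. With the block 17 fell, 19 without treated replicate 3, 7 without untreated replicate 2 or 3, and 4 with no count filter. Mxd1, a repressor of the MYC network, was the gene higher at an unadjusted p under 0.05, and it was called higher in DESeq2, without treated replicate 3, without both libraries numbered 3, at a minimum mean of 10 CPM, and with upper-quartile, library size and housekeeping scaling. Asprv1, a retroviral-like aspartic protease gene, fell to 0.401, 1.27, 2.25 and 5.44 CPM in treated replicates 1 to 4, against 39, 42.1, 11.2 and 40.3 CPM in untreated ones (log2 fold change −3.83 ± 0.72, adjusted p = 0.00548). Il1f9, which encodes the IL-36γ cytokine, fell too (log2 fold change −3.56 ± 0.75, adjusted p = 0.00818). The alarmin genes S100a8 and S100a9 did not pass (−1.54 ± 0.69 and −1.43 ± 0.72, adjusted p = 0.106 and 0.144). S100a9 held 102, 409.8, 784 and 1566 CPM in treated and 1943, 3418, 883 and 1485 CPM in untreated libraries, so treated replicate 4 lay above untreated replicates 3 and 4.

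Among 13 genes for receptors and partners of these proteins, 12 were tested, 4 fell, 1 rose and 7 did not pass, beside 16.2% lower and 20.3% higher over all tested genes (median log2 fold change −1.28). With the block 8 fell. The number that fell was 7 without treated replicate 3, 1 without treated replicate 2 or 4, and 2 without treated replicate 1 or untreated replicate 3 or 4. Pecam1, which encodes the partner of CD177 on endothelium and leukocytes, fell (log2 fold change −1.64 ± 0.31, adjusted p = 0.00533), as did Tlr2, a receptor of bacterial lipoproteins (log2 fold change −1.14 ± 0.32, adjusted p = 0.0235). The Tlr2 call was lost without treated replicate 1, 2 or 4 or untreated replicate 3 or 4 (adjusted p = 0.0525 to 0.065) and with housekeeping scaling (0.14). Slc22a17, which encodes a lipocalin 2 receptor, rose to 4.47, 10.3, 1.85 and 3.17 CPM in treated replicates 1 to 4, against 1.2, 1.4, 1.23 and 1.11 CPM in untreated ones (adjusted p = 0.0173). Itgb2, the integrin chain that pairs with CD11b, did not pass (log2 fold change −0.67 ± 0.28, adjusted p = 0.0884) but did with the block (adjusted p = 0.0294).

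The genes whose profile over the 8 libraries was most like the mean profile of the 10 were BC100530 (r = 0.988), Myb (0.986), Chil1 (0.986), Itgb2l (0.984) and Fcnb (0.983), with genes averaging under 10 CPM left out. These are descriptions over libraries of 2 groups that differ in treatment. BC100530, a stefin family gene, and Myb, a progenitor transcription factor, fell (log2 fold change −2.39 ± 0.66, adjusted p = 0.022; log2 fold change −1.79 ± 0.57, adjusted p = 0.0363), and both overlap genes on the opposite strand. The BC100530 call was lost without untreated replicate 2 (adjusted p = 0.0546), and the Myb call without treated replicate 1 or 2 or untreated replicate 1, 2 or 4 (0.0503 to 0.0896). Both were also lost with no count filter (0.087 for BC100530 and 0.0893 for Myb), and Myb with housekeeping scaling (0.0614). Fcnb, the ficolin B gene of granulocyte precursors, and Itgb2l, an integrin gene of mouse neutrophils, did not pass (log2 fold change −1.87 ± 0.67, adjusted p = 0.0555; log2 fold change −2.44 ± 0.86, adjusted p = 0.0506) but did with the block (adjusted p = 0.0383 and 0.0208). Each of the 10 genes had r of 0.899 to 0.978 with the mean of the other 9.

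The summed markers of each other cell type but the erythroid one were lower in the treated library of every replicate number. So was the sum of 20 housekeeping genes, at 8358 to 14805 CPM in treated and 13229.9 to 20701 CPM in untreated libraries, of which 4 fell and 3 rose. A sum follows its most abundant genes, so a lower sum need not mean that each marker was lower. The gene with the highest mean was Ctss for monocytes, Cd68 for macrophages, H2-Aa for dendritic cells, Ighm for B cells and B2m for housekeeping. The counts of called markers below stand beside 16.2% lower and 20.3% higher over all tested genes and, with the block, 20.8% lower. Monocyte markers summed to 4184 to 13853 CPM in treated and 12322 to 21367 CPM in untreated libraries, with 2 of 11 tested genes lower, 1 higher and 8 lower with the block. Leaving out 1 library gave 0 to 5 lower, with none without treated replicate 2 or untreated replicate 4 and 5 without treated replicate 3. Macrophage markers summed to 1326 to 6052 CPM in treated and 3830.0 to 9133 CPM in untreated libraries, and none of 10 passed in edgeR (1 lower and none higher at an unadjusted p under 0.05; 2 lower and none higher in DESeq2; 6 lower with the block, 3 without treated replicate 3 and 1 without untreated replicate 1). B cell markers summed to 32.8 to 443 CPM in treated and 295 to 1003 CPM in untreated libraries, with 6 of 8 lower and none higher (none at an unadjusted p under 0.05 or in DESeq2). Of these 8, 3 were lower without treated replicate 1, treated replicate 4 or untreated replicate 2 and with housekeeping scaling, 4 without untreated replicate 3, and 8 with the block. Dendritic cell markers summed to 345 to 1288 CPM in treated and 1036 to 4171 CPM in untreated libraries, with 1 of 6 lower and none higher. None was lower without treated replicate 1 or 4 or untreated replicate 2 or 3. With the block 3 were lower and 1, Zbtb46, was higher. With housekeeping scaling none was lower, and Zbtb46 was higher. Cd209a, Ccl17, Xcr1, Clec9a and Siglech were under 1 CPM on average over the 8 libraries. Eosinophil markers summed to 4.99 to 19.9 CPM in treated and 24.7 to 53.5 CPM in untreated libraries, with 2 of 5 lower (1 without replicate 1 of either group, and 3 with the block). Prg3, Epx, Ear2, Ear6 and Ccr3 were under 1 CPM on the same average. Basophil and mast cell markers summed to 30.3 to 86.8 CPM in treated and 75.5 to 111 CPM in untreated libraries (2 of 9 lower, and 1 without any 1 library but treated replicate 1 or 3), T and NK cell markers to 5.45 to 11.8 CPM in treated and 12.8 to 35.6 CPM in untreated libraries (1 of 5 lower, none with the block, where 3 were lower and none higher at an unadjusted p under 0.05, and none without treated replicate 1, 2 or 3 or untreated replicate 1 or 2) and erythroid markers to 1.46 to 3.9 CPM in treated and 1.65 to 4.64 CPM in untreated libraries (1 of 2 higher, and none without treated replicate 1 or 4 or untreated replicate 3). The 10 genes themselves summed to 218 to 1507 CPM in treated and 1667 to 3949 CPM in untreated libraries. The part of a changed cell mixture in the lower granule RNA was not tested.

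**Figure D5:**
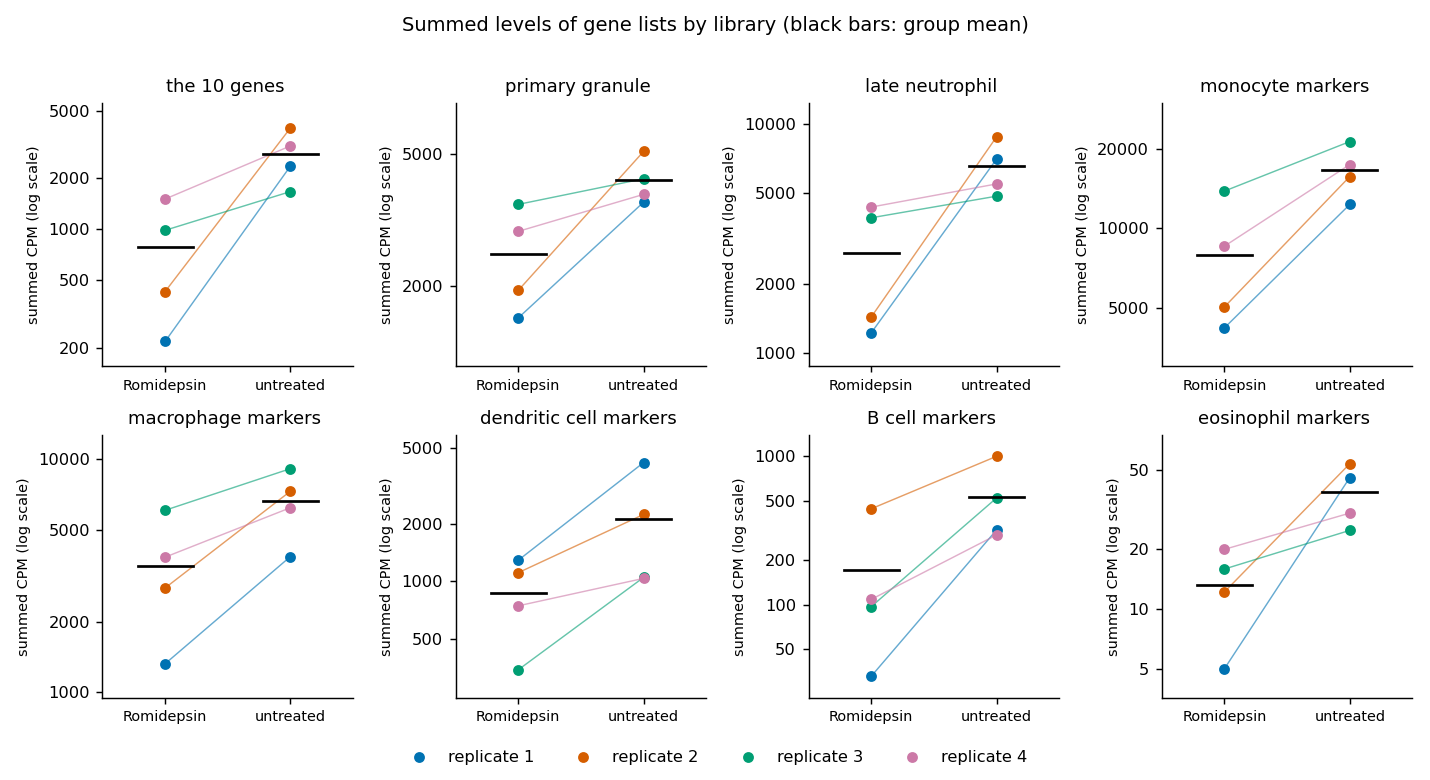
Summed TMM-scaled CPM (log axis) of the 10 genes and of 7 other lists in each library, with Romidepsin on the left and untreated on the right, 1 colour per replicate number and a black bar at each group mean. Within each replicate number, every list shown was lower in the treated library.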

How the data were processed

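The deposited values are raw read counts per Ensembl gene in 8 libraries. Libraries were made from poly(A) RNA with NEBNext reagents and read on a NextSeq 500 using a 75-cycle kit, per the labels' protocols. The submitters' processing notes name STAR 2.5.2a, FastQC, DESeq2 and the GRCm38 (mm10) build. How reads were assigned to genes, with which annotation and strand setting, is not given in the sources used here. Symbols were matched for 26881 of 26930 identifiers, and groups came from the sample titles.

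Counts were analysed with edgeR 4.0.16 in R 4.3.3: filterByExpr on all libraries, TMM scaling and a quasi-likelihood F test (two-sided, robust), Benjamini-Hochberg adjusted over 12852 genes. SEs were taken from the fold change and its F value. Other settings were DESeq2 1.42.0, limma-voom 3.58.1, 4 scalings (1 of them on 20 housekeeping genes), 2 count filters and left-out libraries. The scripts were tested on simulated data. Gene models are GENCODE M21, promoters RefSeq GRCm38.p6 (all 10 genes matched).

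Same-numbered libraries correlated in their deviations from group means at 0.525, 0.270, 0.457 and 0.171, each above the bound of 0.1, so numbers were taken to pair samples; the pairing comes from the data, not the labels. The 10 genes and all lists were chosen with earlier results of these data known. From each list the genes with the lowest p (up to 2 called in the more frequent direction, 1 in the other) and the uncalled gene with the highest mean CPM were named, plus Cebpe, Gfi1, Cebpa, Spi1, S100a8, S100a9, Mpo, Elane, tested paralogs and the 5 most alike genes. Mxd1, the genes named as markers, the pairwise ratio tests and the paired fit without number 3 were chosen after values were seen.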

Additional observations from a re-analysis of the deposited data

Results flagged for a closer look

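In 96 groups of 4 libraries (48 named genes in 2 groups each), 6 had 1 library far from the other 3 by Dixon's criterion at 95%, where chance gives about 1 in 20 groups. Camp stood at 169.6 CPM in untreated replicate 2, above the other untreated libraries, and its fold change without that library is given above. Treated replicate 3 stood above the other treated libraries for Gfi1 (2.65 CPM) and Pecam1 (13.9 CPM). Among untreated libraries, Mmp8 was high in replicate 1 (3317 CPM), Prss57 high in replicate 2 (12.2 CPM) and Asprv1 low in replicate 3 (11.2 CPM).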

How the results depend on the processing

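All 10 genes kept a negative fold change in all 19 alternative settings in which they were tested (Ly6g was filtered out at a minimum mean of 10 CPM). The number of members that fell was 5 in the reported fit and 4 to 8 when each library in turn was left out (8 without treated replicate 4). It was 9 with the replicate block, 8 in DESeq2, 8 in limma-voom, 1 with no count filter (Lcn2), where 26930 genes are tested, and 9 with the block but without both libraries numbered 3, a setting chosen after seeing the data. Of the genes named as markers, Ctss, Cd68, H2-Aa, Ighm and Prg3 did not pass in the unpaired fit but fell with the block. The block changed no other call of a named gene beyond those given with it above. Of all tested genes, 1368 fell with library size only and 720 fell and 4951 rose with housekeeping scaling, against 2080 and 2610. Leaving out each library gave 1183 to 3010 lower and 1716 to 3146 higher genes. The fold change turned sign for Cebpb (0.16), Ctsc (0.39), Trf (0.13) and Ly6c1 (0.43) with housekeeping scaling and for Ctsc (0.019) and Ly6c1 (0.15) with library size only. It ranged over both signs when each library was left out for Ly6c1 (−1.62 to 1.21) and Padi2 (−0.026 to 0.37). No fold change passed in a setting where its sign was turned. The cause was not tested.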
